A study of Rattus norvegicus with 24 samples.

Results

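Interleukins and tumour necrosis factor (TNF) family ligands, with the receptors of both and those of the interferons, were described in the colon and colonic tumours of Pirc rats. The genes were chosen by name: a gene probe belonged if its gene symbol started with Il and a digit, Tnfsf, Tnfrsf, Ifng, Ifngr or Ifnar, or was Tnf, and the genes of the core IL-1 group (Il1a, Il1b, Il1rn, Il1r1, Il1r2, Il1rl1, Il18, Il18bp, Il33) were left out. This gave 98 probes for 85 genes among the 41012 gene probes of the array. Older names on the array brought in Cd40, Fas and Relt, which are TNF receptors, and also Cxcr1, Cxcr2 and Psmg2, which belong to other families and are kept apart below.

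RNA was taken at day 97 from male (ACIxF344)F1-Pirc rats, all of which carried 1 mutant Apc allele in the germline beside 1 wild-type allele, so that no group was free of the mutation. The 4 groups were tumours of rats given dextran sodium sulfate (DSS; rats 1, 5, 6, 7 and 9, 6 arrays), tumours of untreated rats (rats 2, 3, 4, 8 and 10, 5 arrays), normal distal colon of the same DSS rats (6 arrays) and normal distal colon of the same untreated rats (7 arrays). DSS, a polymer that injures the colonic lining, was in the drinking water at 4% from day 40 to 47 and again from day 54 to 61. The labels do not say whether a tumour sample held 1 or several tumours. Each value below is a log2 ratio of the sample over a pool of colon RNA from Apc wild-type rats, measured on the same 2-colour array, and values of the 5 rats of a group are given in the order of the rat numbers above.

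Interleukins act through receptor chains on immune and epithelial cells; most of those considered here signal through Janus kinases and STAT proteins, whereas the IL-36 and IL-18 receptor chains signal through the same adaptors as Toll-like receptors. TNF family ligands are trimers that gather their receptors, which either recruit TRAF proteins and activate NF-kB or, where they carry a death domain, can also start cell death. In the gut these signals pass between epithelium, stroma and immune cells during injury, repair and tumour growth.

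Of the 24 arrays, 21 had 48.4% to 71.0% of their probes well above background in the sample channel and 3, called the raised arrays below, had 87.1% to 95.2%: 1 of the tumour of rat 9 and 2 of normal colon, from rat 4 and from rat 2 (its first). The first digits of the slide identifiers split the arrays in 2 sets, called lots here, a split that the labels do not describe. Rats 1 to 6 were in lot 1 and rats 7 to 10 in lot 2, so that each lot held both treatments and both tissues. Lot 2 was scanned on a day of its own, so that lot and scan day cannot be told apart there. Lot 2 had 435 to 505 saturated spots in the pool channel, against 38 to 179 in lot 1. Normal colon of DSS rats 1 and 5 correlated at 0.969 across features, as high as the closest pair of arrays of a single sample (0.813 to 0.969), and was also counted as 1 sample in an alternative fit. The tumours of these rats correlated at 0.952, near the 0.957 of the 2 arrays of the tumour of rat 6. They were kept as 2 samples in every fit with both rats. The epithelial genes Epcam, Cdh1, Vil1, Krt8 and Cdx2 were above background on all 24 arrays. The 5 rats per group limit the precision.

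Of the 85 genes, 68 passed the signal filter, well above background on at least 5 arrays, and 30 of them were above it on all 24 arrays. The 17 that did not pass were Ifng, Il2, Il3, Il9, Il11, Il12b and Il21 among the cytokines, Tnfsf4 and Tnfsf18 among the TNF ligands, and the receptor genes Il1rapl1, Il1rapl2, Il1rl2, Il5ra, Il10ra, Il13ra2, Tnfrsf8 and Tnfrsf10b. Interferon gamma itself (Ifng) was above background on 2 arrays, both raised. No statement is made about these 17 genes beyond that.

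Tumours were first set against normal colon in untreated rats. Tnfrsf12a, Tnfrsf1b and 6 other TNF receptors of 16, with some TNF ligands, were higher in the tumours. Lower were the interferon gamma receptor chains (Ifngr1 only narrowly), the IL-13 receptor chain Il13ra1 and the cytokines Il15 and Il12a. Of the 68 genes, 14 rose and 9 fell (33.8%), where 21.9% of all 26528 features tested passed, 10.4% higher and 11.4% lower (limma, Benjamini-Hochberg adjusted p below 0.05); the median log2 difference was 0.05 over the 68 genes and 0.00 over all features. By role, 8 of 16 TNF receptors rose and 1 fell (median 0.47), 3 of 7 TNF ligands rose and 2 fell (median -0.05), 2 of 23 interleukin receptors rose and 2 fell (median 0.02), 2 of 16 interleukins fell (median 0.04) and 2 of 3 interferon receptors fell (median -0.58). In bulk tissue, fewer cells of a type and less RNA per cell cannot be told apart. With median centring in place of loess the split was 10 higher and 2 lower.

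**Figure D1:**
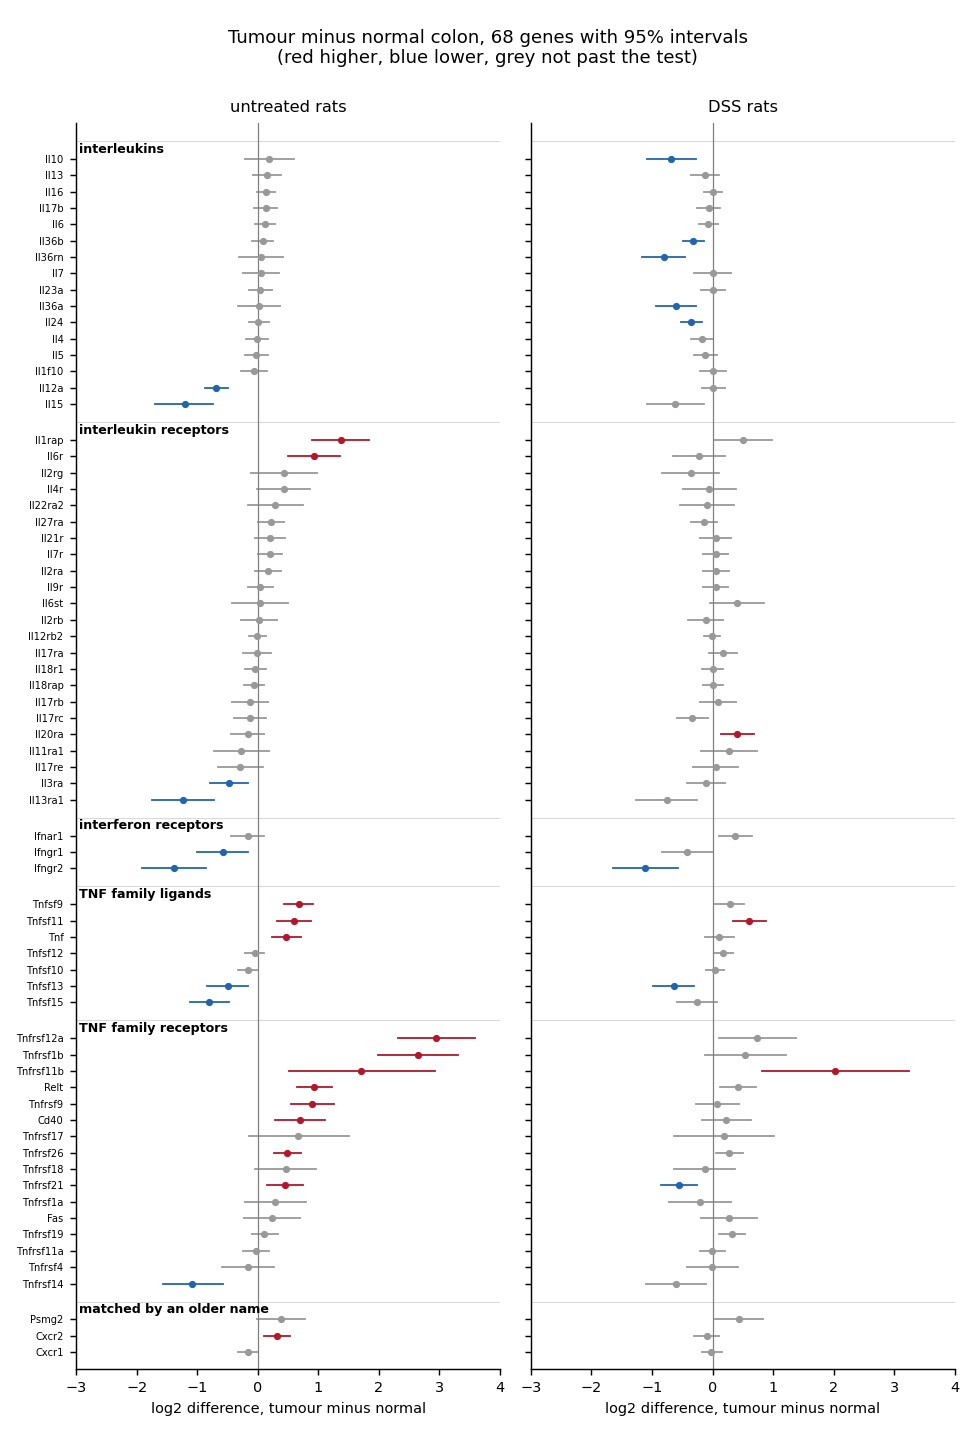
Log2 difference between tumour and normal colon for the 68 genes, grouped by role, in untreated rats (left) and DSS rats (right); points are limma estimates and lines 95% intervals over 5 rats per group. Genes past the test are red where higher and blue where lower: 14 and 9 in untreated rats, 3 and 8 in DSS rats.

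Tnfrsf12a, the receptor of the TNF ligand TWEAK, had the largest change of the 68 genes. Its log2 ratios were 2.34, 2.44, 3.1, 3.08 and 2.68 in tumours of untreated rats, against -0.44, 0.15, 0.01, -0.87 and 0.04 in their normal colon. The tumours lay far above all normal samples. The difference was 2.95 ± 0.30 (SE; 7.74-fold, adjusted p = 2.55e-06), with 2.72 within lot 1 and 3.30 within lot 2. In a fit of all probes, its other probe gave 2.10 (adjusted p = 3e-06). The gene for its ligand, Tnfsf12, differed by -0.05 ± 0.08 (adjusted p = 0.768).

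Tnfrsf1b, the TNF receptor found mainly on immune and endothelial cells, had 1.37, 1.75, 2.72, 3.11 and 2.54 in tumours, against -0.75, -1.06, -0.25, -0.24 and 0.55 in normal colon of untreated rats. The groups did not overlap, and the difference was 2.65 ± 0.32 (6.27-fold, adjusted p = 1.26e-05; 2.64 within lot 1 and 2.67 within lot 2). The broadly expressed TNF receptor Tnfrsf1a, which carries a death domain, differed by 0.29 ± 0.24 (adjusted p = 0.47).

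The promoters of these 2 genes are shown because they rose the most and because both also rose in normal colon after DSS; the sequences are the 250 bases before the gene start in RefSeq on build GRCr8, 5′ to 3′ on the coding strand, with a motif match in capitals. In Tnfrsf12a (chr10:13213649-13213898, minus strand) the capitals mark a STAT motif, TTCNNNGAA, at -136 from the gene start. In Tnfrsf1b (chr5:162387412-162387661, minus strand) they mark an AP-1 motif, TGANTCA, at -186.
Tnfrsf12a: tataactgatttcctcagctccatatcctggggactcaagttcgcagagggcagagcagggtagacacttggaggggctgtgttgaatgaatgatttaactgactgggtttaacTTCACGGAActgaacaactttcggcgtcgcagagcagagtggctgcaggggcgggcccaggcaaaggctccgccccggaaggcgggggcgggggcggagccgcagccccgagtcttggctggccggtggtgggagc
Tnfrsf1b: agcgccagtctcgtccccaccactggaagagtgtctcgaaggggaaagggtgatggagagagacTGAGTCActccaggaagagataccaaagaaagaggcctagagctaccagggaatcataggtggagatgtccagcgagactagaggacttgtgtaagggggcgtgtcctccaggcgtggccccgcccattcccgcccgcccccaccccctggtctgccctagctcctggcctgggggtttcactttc
Both strands were searched for these motifs, for CTTTGAT of TCF/LEF factors and for the NF-kB motif. The STAT motif was present in 7.67% of 33469 promoters of this length and in 4 of the 63 promoters matched to the genes described here. The AP-1 motif was in 6.34% of promoters and 8 of the 63, and the NF-kB motif in 6.33% and 7 of the 63. The TCF/LEF motif was in 3.15% of promoters and 1 of the 63. Among the others that rose in both comparisons, the windows of Il6r, Tnfrsf9 and Tnfrsf21 held none of the 4 motifs. Tnfsf9 also rose in both, and no promoter was matched to it. A match describes letters in a window and is not a binding site.

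Tnfrsf11b, the soluble decoy receptor osteoprotegerin, had 2.02, 2.81, 2.13, 1.99 and 1.87 in tumours, against 1.52, 0.90, 1.82, -1.01 and -0.98 in normal colon of untreated rats. The groups did not overlap, but the normal colon of lot 1 rats 2 and 4 lay near the tumours. That of lot 1 rat 3 was lower, and that of lot 2 rats 8 and 10 lay far below. The difference was 1.71 ± 0.58 (3.28-fold, adjusted p = 0.0392), with 0.91 within lot 1 and 2.93 within lot 2, and the call was lost when any of rats 1, 3, 5, 8 or 10 was left out (adjusted p up to 0.156).

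Relt, a receptor of haematopoietic tissue, had 0.99, 1.08, 1.39, 0.88 and 0.94 in tumours, against 0.26, 0.10, 0.26, 0.02 and 0.02 in normal colon, without overlap (0.93 ± 0.14, adjusted p = 9.56e-05). Tnfrsf9, the costimulatory receptor 4-1BB of activated lymphocytes, had 0.62, 0.40, 0.57, 0.88 and 0.64 in tumours, against -0.13, -0.32, -0.20, -0.36 and -0.36 in normal colon (0.90 ± 0.17, adjusted p = 0.000788). Cd40, which receives T cell help on B cells and myeloid cells, was higher in the tumours of 4 of 5 rats (0.70 ± 0.20, adjusted p = 0.0137). Its values overlapped, with -0.59, -0.35, -0.09, 0.29 and 0.25 in tumours and -0.57, -1.04, -0.32, -1.10 and -0.97 in normal colon, and the call was lost without rat 8 or rat 10 (adjusted p up to 0.108). Tnfrsf21, the death-domain receptor DR6, rose by less (0.45 ± 0.14, adjusted p = 0.028), and its call was lost without rat 2, 4, 8 or 10. Tnfrsf26 rose by 0.48 ± 0.11; it and the genes marked below as outside the naming rule were named after their values were seen, to account for every gene that passed.

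Tnfrsf14 (HVEM, the receptor of LIGHT and a ligand of BTLA) was the TNF receptor that fell. It had -0.81, -0.82, -1.47, -1.62 and -1.34 in tumours, against 0.20, 0.13, -0.09, 0.08 and -0.98 in normal colon of untreated rats. The normal colon of rat 10 lay within the range of the tumours, and all 5 rats were lower in the tumour than in their own normal colon. The difference was -1.08 ± 0.24 (2.11-fold lower, adjusted p = 0.00258), and the gene's other probe gave -0.56 (adjusted p = 0.00977). Tnfrsf4, Tnfrsf11a, Tnfrsf17, Tnfrsf18, Tnfrsf19, Tnfrsf1a and Fas did not pass.

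**Figure D2:**
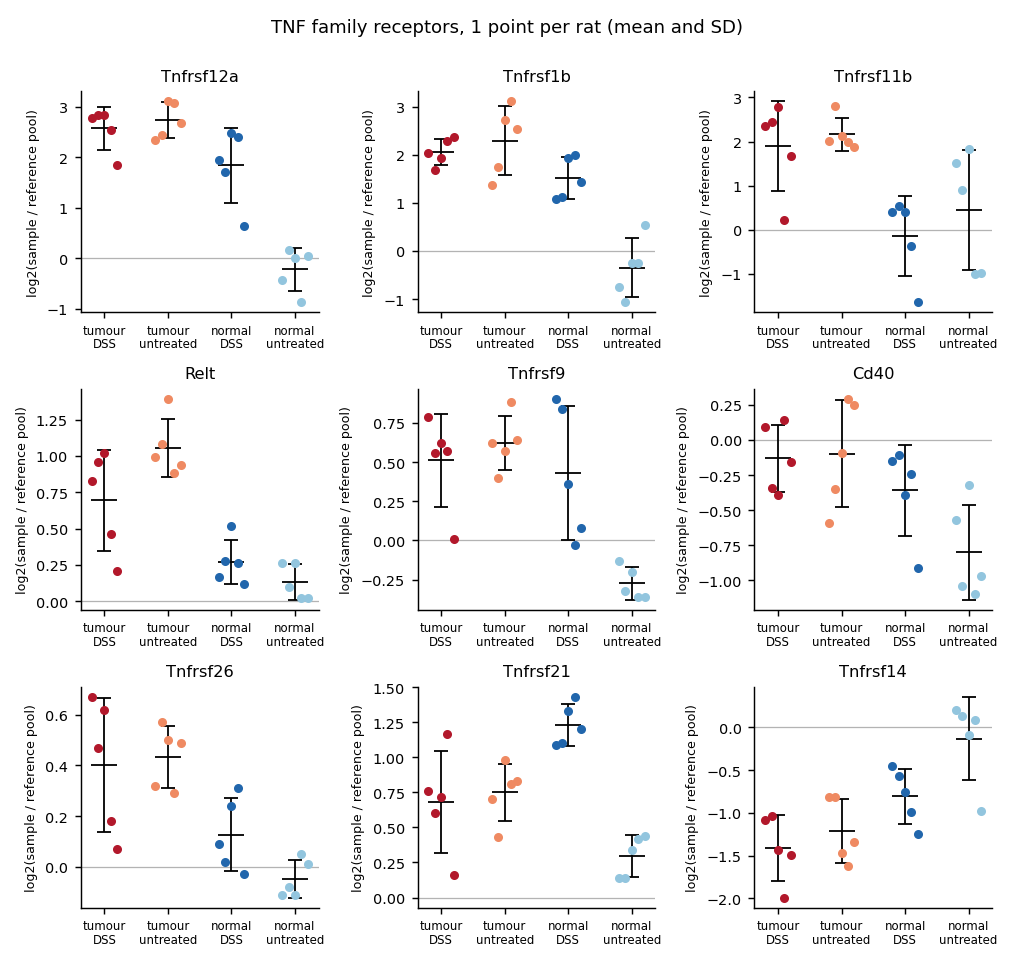
Log2 ratio of sample over wild-type colon pool for 9 TNF receptors, with 1 point per rat and black lines for mean and SD, in tumours and normal colon of DSS and untreated rats. Tnfrsf12a and Tnfrsf1b are lowest in the normal colon of untreated rats in every rat, while the mean of Tnfrsf21 is highest in the normal colon of DSS rats.

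Among the TNF ligands, Tnf itself had 0.41, 0.48, 0.80, 0.53 and 0.32 in tumours, against 0.03, 0.04, 0.06, 0.05 and 0.01 in normal colon of untreated rats. Apart from the raised arrays, its probe was above background on 5 of 5 tumour arrays and on 0 of 5 normal arrays of untreated rats. The difference was 0.47 ± 0.11 (adjusted p = 0.00571). Tnfsf11, the RANK ligand that osteoprotegerin binds, rose by 0.60 ± 0.13 (adjusted p = 0.00242) and was likewise above background on 5 of 5 against 0 of 5 arrays. Log ratios of such dim probes are compressed: with Agilent's processed signals the differences were 1.76 for Tnf and 2.69 for Tnfsf11. Tnfsf9, the ligand of 4-1BB (outside the naming rule), rose by 0.68 ± 0.11.

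Tnfsf15, the ligand TL1A that endothelial and myeloid cells release, fell. It had -0.16, 0.15, 0.00, -0.37 and -0.56 in tumours, against 0.38, 0.66, 1.14, 0.19 and 0.66 in normal colon of untreated rats, with no overlap (-0.80 ± 0.16, 1.74-fold lower, adjusted p = 0.001). Tnfsf13, the ligand APRIL that keeps plasma cells alive, differed by -0.50 ± 0.16 (adjusted p = 0.0304, and 0.0522 without the raised arrays), and its call was lost without rat 4 or 8 (up to 0.216). The death ligand Tnfsf10 (TRAIL) differed by -0.17 ± 0.07 (adjusted p = 0.108).

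Of the interleukin receptors, Il1rap, the coreceptor shared by the IL-1, IL-33 and IL-36 receptors, had 0.78, 0.60, 1.65, 0.85 and 0.92 in tumours, against -0.11, -0.53, -0.36, -0.55 and -0.52 in normal colon of untreated rats. The lowest tumour lay above the highest normal sample, and the difference was 1.37 ± 0.23 (2.58-fold, adjusted p = 0.000244). Il6r, the ligand-binding chain of the IL-6 receptor, had 0.51, 0.69, 1.25, 1.27 and 1.28 in tumours, against 0.15, -0.10, 0.19, 0.00 and 0.12 in normal colon (0.93 ± 0.20, 1.90-fold, adjusted p = 0.00262). Both groups stood apart for Il6r too, while its signalling chain Il6st differed by 0.03 ± 0.22 (adjusted p = 0.951) and Il6 by 0.12 ± 0.08 (adjusted p = 0.309).

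Il13ra1, which binds IL-13 and pairs with Il4r, had -0.20, -0.80, -0.27, -1.66 and -1.34 in tumours, against 0.74, 0.50, 0.46, 0.40 and -0.24 in normal colon of untreated rats. The normal colon of rat 10 overlapped the tumours, and each rat was lower in its tumour. The difference was -1.23 ± 0.24 (2.34-fold lower, adjusted p = 0.00111); its 3 other probes gave -0.85, -0.62 and -0.47, of which the largest passed (adjusted p = 0.012). Its partner Il4r differed by 0.43 ± 0.21 (adjusted p = 0.164), and Il3ra (outside the naming rule) by -0.48 ± 0.15, a call lost without any 1 of the 5 untreated rats. The other 19 interleukin receptors did not pass. Cxcr2, a neutrophil chemokine receptor matched by its older name, rose by 0.32 ± 0.10, a call lost without rat 3, 4, 8 or 10.

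Ifngr2, the signalling chain of the interferon gamma receptor, had -0.84, -0.76, -1.45, -2.0 and -2.04 in tumours, against -0.03, 0.18, 0.27, -0.48 and -0.09 in normal colon of untreated rats. All tumours lay below all normal samples, and the difference was -1.38 ± 0.26 (2.61-fold lower, adjusted p = 0.000641; -1.15 within lot 1 and -1.73 within lot 2). The ligand-binding chain Ifngr1 had 0.17, 0.11, 0.13, -0.75 and -0.90 in tumours, against 0.35, 0.55, 0.67, 0.11 and -0.01 in normal colon. It fell in all 5 rats (-0.58 ± 0.20, adjusted p = 0.0471), but the call was lost without the raised arrays (0.143) and when any of rats 1, 3, 4, 6, 7, 8, 9 or 10 was left out (up to 0.131). Ifnar1, a chain of the type I interferon receptor, differed by -0.17 ± 0.13 (adjusted p = 0.414).

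Among the cytokines, Il15, which sustains natural killer cells and intraepithelial lymphocytes, had -2.20, -2.53, -2.49, -2.46 and -2.68 in tumours, against -1.05, -1.07, -0.90, -1.69 and -1.57 in normal colon of untreated rats. The groups did not overlap (-1.21 ± 0.23, 2.32-fold lower, adjusted p = 0.000712), and all 10 values lay below the wild-type pool. Il12a, a subunit of IL-12 and IL-35, had 0.02, -0.11, -0.21, -0.38 and -0.30 in tumours, against 0.29, 0.46, 0.55, 0.74 and 0.42 in normal colon (-0.69 ± 0.09, adjusted p = 2.59e-05). Il12a was a dim probe, above background on 1 of 5 tumour arrays and 7 of 7 normal arrays, and the difference was -2.26 with Agilent's processed signals. Outside normal colon of untreated rats, Il12a met the signal filter only with a raised array. The other 14 cytokines did not pass, among them Il10 at 0.19 ± 0.19 (adjusted p = 0.563), Il23a at 0.04 ± 0.09 (adjusted p = 0.846) and Il24 at 0.01 ± 0.08 (adjusted p = 0.947).

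**Figure D3:**
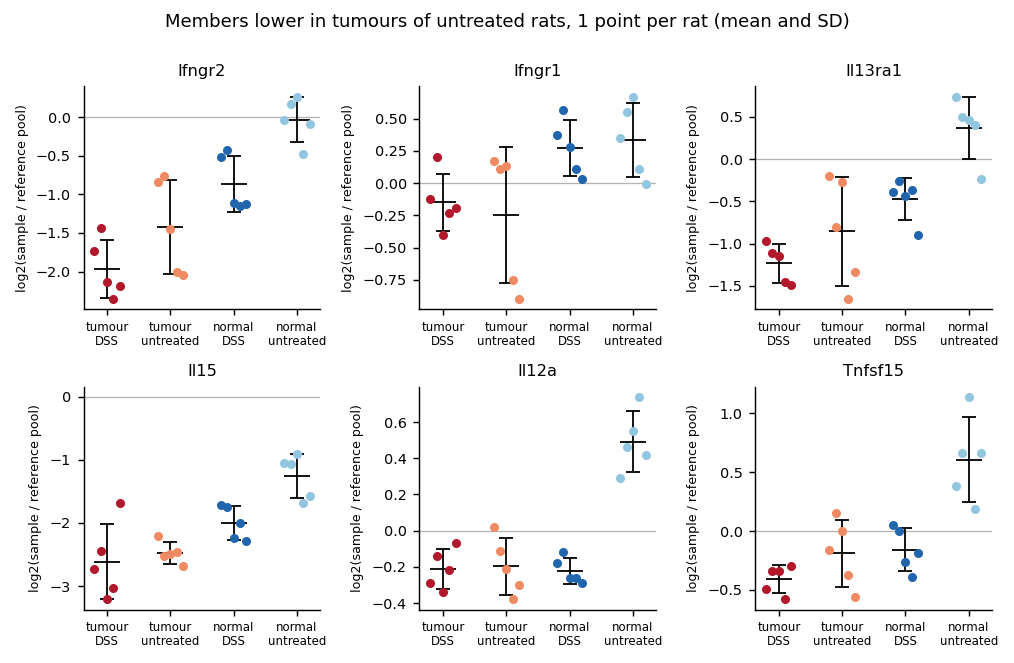
Log2 ratio of sample over wild-type colon pool for 6 genes that fell in tumours of untreated rats, with 1 point per rat and black lines for mean and SD. The means of Il12a and Tnfsf15 are above 0 only in the normal colon of untreated rats, and the mean of Ifngr2 is lowest in tumours of DSS rats.

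Markers of several cell types moved with these genes. The mean log2 ratio of 6 neutrophil markers ran from 1.35 to 2.16 in tumours and from -0.09 to 0.35 in normal colon of untreated rats, and 4 of the 6 rose. For 9 macrophage markers it ran from 0.10 to 0.88 in tumours and from -0.62 to -0.28 in normal colon, and 6 of 9 rose. For 8 fibroblast markers, of which 4 rose, it ran from -1.41 to 0.24 in tumours and from -2.47 to -1.79 in normal colon. Of 9 T cell markers, 3 rose. Other markers fell: Krt20 (-1.78) and Cdx2 (-0.67) of 8 simple epithelium markers, Gzmb (-1.35) of 5 cytotoxic markers, and Des (-1.55) and Smtn (-0.84) of 4 smooth muscle markers, while Tagln of the last list rose (0.84). The mean of the epithelial markers ran from -0.68 to 0.50 in tumours and from 0.19 to 0.48 in normal colon. The markers Mpo, Cd163, Cd4, Cd28 and Lck were not among the features tested, and the part of these cells in the changes above was not tested.

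In DSS rats the same comparison of tumour with normal colon gave other counts: 3 of the 68 genes rose and 8 fell (16.2%), where 10.2% of all features passed, 4.96% higher and 5.25% lower. Of the 8, Il10 and Il24 passed the signal filter only through the normal colon, where they were high. Without them 6 fell. Among these, Il36a, Il36b and Il36rn met the filter outside normal colon of DSS rats only with the raised arrays. The median log2 difference was 0.00 over the 68 genes and 0.01 over all features. With the rat as a fixed block, which the pairing of both tissues of an animal allows, 21 genes passed (9 higher and 12 lower), and with median centring 1 rose and 5 fell. Tnfrsf12a was higher in the tumour than in the normal colon of all 5 DSS rats, but did not pass in the main fit, which had no block (0.73 ± 0.30, adjusted p = 0.148). It passed with the rat as a fixed block (adjusted p = 0.0402). Tnfrsf1b was higher in the tumours of 4 rats and level to 2 decimals in rat 6, and passed with neither fit (0.54 ± 0.32, adjusted p = 0.344, and 0.0867 with the block). The other 9 genes that the fixed rat block added were Relt, Tnfrsf19, Ifnar1, Il6st and Psmg2, higher in tumours, and Il13ra1, Tnfrsf14, Ifngr1 and Il17rc, lower. All of these but Ifnar1 and Il6st also passed with lot as a fixed block (limma adjusted p from 0.00368 to 0.0441).

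Tnfrsf11b had 2.35, 2.44, 2.78, 0.23 and 1.67 in tumours, against 0.39, 0.53, 0.40, -0.37 and -1.64 in normal colon of DSS rats. Only the tumour of rat 7 lay among the normal samples; the difference was 2.03 ± 0.58 (4.09-fold, adjusted p = 0.0292), lost without rat 1, 5, 6 or 9 (up to 0.107). Tnfsf11 had 0.78, 0.63, 0.54, 0.98 and 0.48 in tumours, against 0.02, 0.01, 0.20, 0.30 and -0.12 in normal colon, with no overlap (0.60 ± 0.13, adjusted p = 0.00488). Il20ra, a receptor chain for IL-19, IL-20 and IL-24, rose by 0.41 ± 0.13, close to the threshold (adjusted p = 0.0488, and 0.126 without the raised arrays), and the call was lost without any 1 of 9 rats, all but rat 7.

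Ifngr2 had -1.73, -1.43, -2.14, -2.36 and -2.19 in tumours, against -0.52, -0.42, -1.11, -1.15 and -1.13 in normal colon of DSS rats. Again no tumour reached a normal sample (-1.11 ± 0.26, 2.15-fold lower, adjusted p = 0.00829). Tnfsf13 fell by 0.64 on the log2 scale (SE 0.16, adjusted p = 0.0133), a call lost without rat 1 or 7. Il13ra1 differed by -0.76 ± 0.24 (adjusted p = 0.0519, and 0.00732 with the rat as a fixed block). In the limma fit of all probes, another probe of Il13ra1 passed (-0.73, adjusted p = 0.00744), and the remaining ones did not (-0.54 and -0.49, adjusted p = 0.171 and 0.24). Il36a, Il36b, Il36rn and Tnfrsf21 also fell, and their values, with those of Il10 and Il24, are given with the normal colon of DSS rats, where they were high. In the same comparison 1 of 8 simple epithelium markers fell, the differentiation marker Krt20 (-2.60), and 1 of 5 cytotoxic markers, Gzmb (-1.81). The others of these 2 lists did not pass. Of 9 macrophage markers 3 rose, and of 4 smooth muscle markers 1. The part of these cells was not tested.

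DSS was next compared with no treatment in normal colon, at day 97, when DSS had been withdrawn since day 61. Tnfrsf12a, Tnfrsf1b, Tnfrsf21, Tnfrsf9 and 5 dim cytokine genes were higher in DSS rats, and Il12a, Il15, Tnfsf15, Il13ra1 and Ifngr2 lower. Of the 68 genes, 11 rose and 5 fell (23.5%), where 9.79% of all features passed, 4.85% higher and 4.95% lower; the median log2 difference was 0.10 over the 68 genes and -0.02 over all features. Il10 and Il24 passed the signal filter only through the normal colon of DSS rats, where they were high. They could thus hardly fail to differ. Without them 9 genes rose and 5 fell. Il36a, Il36b and Il36rn are still in this count. Outside that group they met the filter only with the raised arrays, so their rises carry the same limit. Il12a, among the falls, met it outside normal colon of untreated rats only with a raised array. With median centring the split was 5 higher and 2 lower, with the local background as given 8 and 2, and with the rat as a random block 9 and 4. This comparison shares the normal colon of untreated rats with the tumour comparison above. By role, 4 of 16 TNF receptors rose (median 0.31), 5 of 16 interleukins rose, Il10 and Il24 among them, and 2 fell (median 0.15), and 1 of 23 interleukin receptors rose and 1 fell (median 0.02).

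Tnfrsf12a had 1.95, 1.71, 2.48, 2.40 and 0.63 in normal colon of DSS rats, against -0.44, 0.15, 0.01, -0.87 and 0.04 in that of untreated rats. Rat 9 was the lowest of the DSS rats and still above every untreated rat; the difference was 2.06 ± 0.30 (4.17-fold, adjusted p = 0.000206), with 2.14 within lot 1 and 1.93 within lot 2. Tnfrsf1b had 1.09, 1.12, 1.93, 2.0 and 1.44, against -0.75, -1.06, -0.25, -0.24 and 0.55 in untreated rats (1.87 ± 0.32, 3.64-fold, adjusted p = 0.00085). Its groups did not overlap either.

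Tnfrsf21 had 1.09, 1.10, 1.33, 1.43 and 1.20 in normal colon of DSS rats, against 0.14, 0.14, 0.34, 0.42 and 0.44 in that of untreated rats. Its mean was 1.23 ± 0.15 in normal colon of DSS rats (SD, n = 5), against 0.30 ± 0.15 in that of untreated rats, and the tumours lay between, with 0.68 ± 0.36 in DSS rats and 0.75 ± 0.20 in untreated rats. The difference between DSS and untreated normal colon was 0.93 ± 0.14 (1.91-fold, adjusted p = 0.00032), and tumours of DSS rats were below their normal colon by 0.55 on the log2 scale (adjusted p = 0.0181, 0.051 without the raised arrays, and lost without rat 5, 6 or 9). Il6r had 1.17, 1.51, 1.10, 0.67 and 1.50, against 0.15, -0.10, 0.19, 0.00 and 0.12 (1.12 ± 0.20, 2.17-fold, adjusted p = 0.00157), again with no overlap. Tnfrsf9 rose by 0.70 ± 0.17 (adjusted p = 0.0117), with 0.90, 0.84, 0.36, -0.03 and 0.08 in DSS rats; rats 7 and 9 of lot 2 lay close to the untreated ones. Tnfsf9 (outside the naming rule) rose by 0.52 ± 0.11.

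Among the cytokines, Il10, which restrains inflammatory responses, had 0.84, 0.82, 0.83, 0.37 and 1.91 in normal colon of DSS rats, against 0.09, 0.14, 0.08, 0.00 and 0.04 in that of untreated rats, a log2 difference of 0.88 ± 0.19. Its probe was above background on 6 of 6 DSS arrays and 1 of 7 untreated arrays, which was a raised array, and on 1 array in each tumour group; since it was tested only through the group where it is high, its difference is given as a description. In tumours of DSS rats Il10 had 0.41, 0.46, 0.42, 0.12 and -0.07, below the normal colon of the same rats in all 5 (-0.68 ± 0.19, likewise a description).

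The IL-36 cytokines, which act on epithelia that form a barrier, included an antagonist, Il36rn, and the agonists Il36a and Il36b. Il36rn had 0.56, 0.63, 0.23, 0.08 and 0.87 in normal colon of DSS rats, against -0.39, -0.14, -0.79, -0.03 and -0.05 in that of untreated rats (0.75 ± 0.17, adjusted p = 0.00829). Il36a had 0.22, 0.07, 0.26, 0.67 and 1.34, against -0.08, 0.02, -0.10, 0.10 and -0.02, so that rat 5 overlapped the untreated rats (0.53 ± 0.16, adjusted p = 0.0453). Il36b (outside the naming rule) rose by 0.37 ± 0.08. Il36a did not pass without the raised arrays (0.105), with the rat as a random block (0.0634), or without rat 2, 3, 4, 6, 7, 8 or 10 (up to 0.109). Il24, a cytokine of the IL-20 group, differed by 0.28 ± 0.08, given as a description for the same reason as Il10. The tests of Il36a, Il36b and Il36rn carry the limit of the signal filter named above.

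In tumours of DSS rats Il36rn ran from -0.91 to -0.19, Il36a from -0.19 to 0.01, Il36b from -0.20 to -0.04 and Il24 from -0.18 to 0.06, all below the normal colon of the same rats without overlap. Il36rn, Il36a and Il36b fell in tumour against normal colon of DSS rats (log2 differences of -0.81, -0.60 and -0.32), and Il24 differed by -0.35; without rat 7, Il36a and Il36b lost their calls, as did Il36b without rat 9. Their probes were dim: apart from the raised arrays they were above background on 4 to 6 of 6 arrays of DSS normal colon and on 0 or 1 of 5 in each of DSS tumours and untreated normal colon. With Agilent's processed signals the DSS difference of Il36rn was 2.56 and that of Il36a 1.87.

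**Figure D4:**
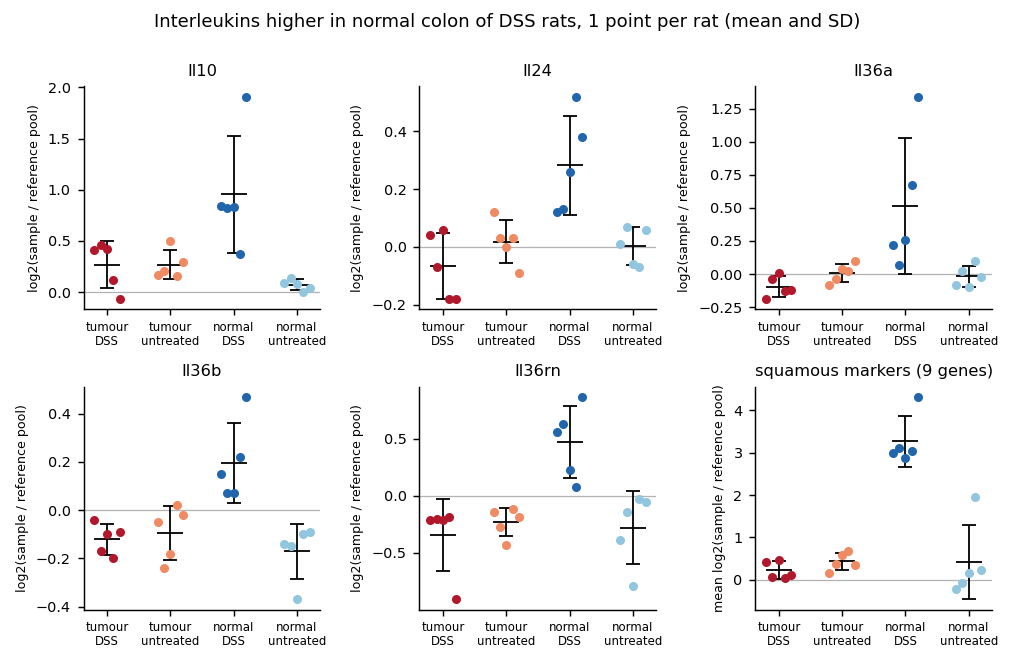
Log2 ratio of sample over wild-type colon pool for 5 cytokine genes higher in normal colon of DSS rats, and the mean of 9 squamous epithelium markers, with 1 point per rat and black lines for mean and SD. The squamous marker mean is 2.88 to 4.32 in normal colon of DSS rats and at most 1.95 elsewhere.

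Markers of squamous epithelium were also higher in normal colon of DSS rats. Their mean log2 ratio over 9 genes ran from 2.88 to 4.32 there and from -0.21 to 1.95 in that of untreated rats, and 8 of 9 rose. The 1.95 was that of rat 8 alone, and the other untreated rats reached at most 0.23. In rat 8 Il36rn had -0.03, Il36a 0.10, Il36b -0.10, Il24 -0.07 and Il10 0.00. The marker mean ran from 0.05 to 0.47 in tumours of DSS rats, and 8 of 9 fell there against normal colon of the same rats. The squamous markers Trp63 and Dsg3 were not among the features tested. Neutrophil markers ran from 0.97 to 1.42 in normal colon of DSS rats and from -0.09 to 0.35 in that of untreated rats, with 2 of 6 risen (S100a8 by 3.14 and S100a9 by 2.60, which keratinocytes also make). Of 9 macrophage markers 2 rose (mean log2 ratio from -0.01 to 0.22 in DSS rats and from -0.62 to -0.28 in untreated rats), and of 8 fibroblast markers 2 (from -1.88 to -1.17 and from -2.47 to -1.79). The part of these in the cytokine and receptor changes was not tested.

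Of the genes that fell with DSS in normal colon, Il12a had -0.18, -0.12, -0.26, -0.26 and -0.29 in DSS rats, against 0.29, 0.46, 0.55, 0.74 and 0.42 in untreated rats (-0.71 ± 0.09, adjusted p = 4.27e-05). The groups lay well apart. Tnfsf15 had 0.05, 0.00, -0.26, -0.39 and -0.19, against 0.38, 0.66, 1.14, 0.19 and 0.66 (-0.77 ± 0.16, adjusted p = 0.00354), also without overlap. Il15 (-0.74 ± 0.23, adjusted p = 0.0442), Il13ra1 (-0.85 ± 0.24, 0.0318) and Ifngr2 (-0.83 ± 0.26, 0.0457) passed narrowly. In the limma fit of all probes, the other probes of Il13ra1 gave -0.57, -0.39 and -0.23, and none passed (adjusted p = 0.141, 0.357 and 0.454). Il15 did not pass with the rat as a random block (0.0591). The calls were lost without any 1 of rats 1 to 7 for Il15, of rats 1 to 7 and 9 for Il13ra1, and of rats 1, 2, 3, 4, 6, 7 and 9 for Ifngr2 (adjusted p up to 0.131), and Il13ra1 and Ifngr2 also without the raised arrays (0.0717 and 0.109).

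In tumours, DSS against no treatment gave no gene past the test, among the 68 or among all features (0% called by limma). At an unadjusted p below 0.05 there were 7 of the 68, 2 higher and 5 lower, and 1929 of all features (7.27%). The 95% interval of the difference lay within a 2-fold change either way for 64 of the 68 genes, so larger changes are outside the interval for most of them. The smallest p-values belonged to Il20ra (0.40, adjusted p = 0.405), Ifnar1 (0.29, 0.649), Il3ra (0.31, 0.702) and Tnfrsf19 (0.21, 0.703) on the higher side and to Il1rap (-0.76, 0.378), Relt (-0.36, 0.543), Il18r1 (-0.21, 0.593) and Cxcr2 (-0.24, 0.6) on the lower. Il1rap had 0.19, 0.37, 0.90, -0.51 and 0.06 in tumours of DSS rats, against 0.78, 0.60, 1.65, 0.85 and 0.92 in those of untreated rats. Only rat 6 of the DSS rats reached the range of the untreated ones.

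Whether the effect of DSS differed between tumours and normal colon was tested as an interaction, the DSS effect in tumours minus that in normal colon. Of the 68 genes, 4 had a negative and 1 a positive interaction (7.35%), where 4.04% of all features passed, 2.50% negative and 1.55% positive; the median was -0.12 over the 68 genes and 0.02 over all features. With the rat as a fixed block 9 genes passed, the 5 and Tnfrsf9, Il36b, Cxcr2 and Relt. Ifnar1 lay at the threshold, and the count was 10 with it. The split was 1 positive and 1 negative with median centring, and 1 and 10 with Agilent's processed signals.

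For Tnfrsf12a the DSS effect was -0.16 in tumours and 2.06 in normal colon, an interaction of -2.22 ± 0.43 (adjusted p = 0.00519). For Tnfrsf1b the effects were -0.24 and 1.87 (-2.11 ± 0.45, adjusted p = 0.0108), for Tnfrsf21 -0.07 and 0.93 (-1.0 ± 0.20, adjusted p = 0.0074), and for Il6r -0.04 and 1.12 (-1.15 ± 0.29, adjusted p = 0.0281). Il12a went the other way, with -0.01 in tumours and -0.71 in normal colon (0.70 ± 0.13, adjusted p = 0.00324). It is the 1 positive call, and outside normal colon of untreated rats, where it is high, it met the signal filter only with a raised array. Its test therefore carries nearly the same limit as that of Il10 below. For Tnfrsf12a, Tnfrsf1b, Il6r and Il12a, all 5 normal samples of untreated rats lay outside the range of the other 15 samples, while for Tnfrsf21 they overlapped tumours. Il6r lost its call when any of rats 1, 4, 5, 6, 8, 9 or 10 was left out (up to 0.103), while the other 4 held without each rat. Il36rn (-0.86, adjusted p = 0.0517) and Tnfrsf9 (-0.82, 0.0637, and 0.0179 with the rat as a fixed block) did not pass in the main fit. Il10 had an interaction of -0.88, given as a description, since it was tested only through the group where it is high.

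**Figure D5:**
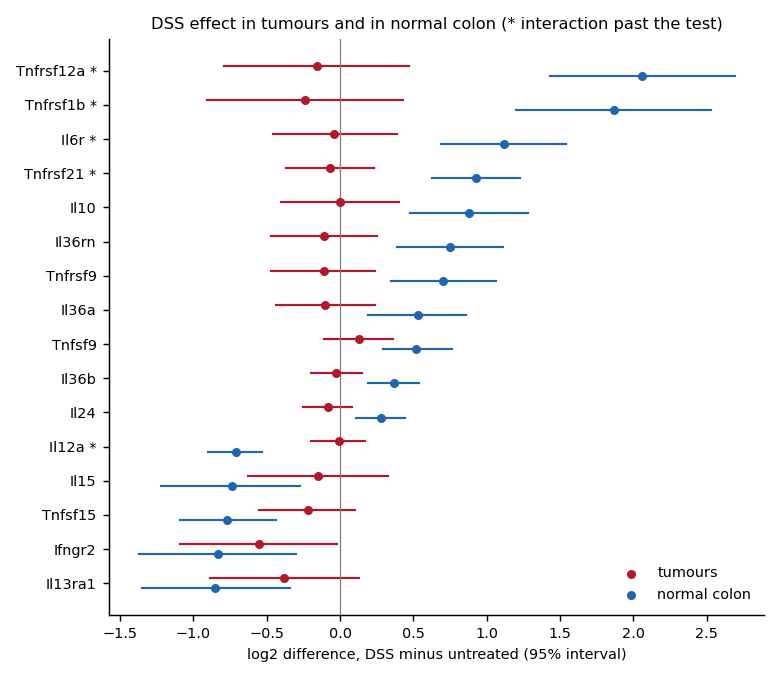
Log2 difference between DSS and untreated rats in tumours (red) and in normal colon (blue) for the 16 genes past the test in normal colon, with 95% intervals over 5 rats per group; an asterisk marks the 5 genes with an interaction past the test. For Tnfrsf12a the interval of the tumours runs from -0.79 to 0.47 and that of normal colon from 1.43 to 2.69.

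Ligands and receptors of the same pair were set side by side in tumour against normal colon of untreated rats. For 4-1BB, receptor and ligand both rose (Tnfrsf9 by 0.90 and Tnfsf9 by 0.68). For RANK ligand, Tnfsf11 (0.60) and the decoy Tnfrsf11b (1.71) rose, and the signalling receptor Tnfrsf11a had -0.03. For TWEAK, the receptor Tnfrsf12a rose by 2.95, and Tnfsf12 had -0.05. For interferon gamma, both receptor chains fell, Ifngr1 only narrowly, and Ifng did not pass the signal filter. The calls of Ifngr1 and Tnfrsf11b were lost when single rats were left out, as given above. For IL-36, neither Il36a, Il36b nor Il36rn passed.

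Genes downstream of these receptors were counted in lists chosen with earlier results known, and their counts stand beside 21.9% of all features called in tumours of untreated rats (10.4% higher) and 9.79% after DSS in normal colon. Of 17 JAK-STAT transducers and inhibitors, 3 rose in tumours against normal colon of untreated rats (Jak2 by 0.54, the feedback inhibitors Socs1 by 0.43 and Socs3 by 0.34) and 2 fell (Socs2 at -0.78, Pias3 at -0.56). In normal colon after DSS, 2 rose (Socs1 by 0.57, Socs3 by 0.53) and Pias3 fell (-0.66). The list's median was 0.01 and -0.09 in these comparisons. Of 22 TNF and NF-kB transducers and inhibitors, 4 rose in the tumours of untreated rats (Rel by 0.94, Cflar by 0.90, Casp8 by 0.78, Nfkb1 by 0.76) and Tradd fell (-0.63), with a median of 0.03; 5 of 22 is close to the share of all features, and nothing is read from it.

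Cflar, the caspase-8 inhibitor that restrains death receptors, was called in 4 of the 5 comparisons. Beside its rise in tumours of untreated rats, it rose by 1.71 ± 0.22 with DSS in normal colon (adjusted p = 5.67e-05), fell in tumour against normal colon of DSS rats (-1.30, adjusted p = 0.000775) and had an interaction of -2.20 ± 0.31 (adjusted p = 0.000397). Nfkb1 also rose with DSS in normal colon (0.52, adjusted p = 0.0402). Of 10 tested cytokines and receptors of related families under other symbols, 4 rose in tumours of untreated rats against their normal colon: Crlf2, the TSLP receptor, by 1.12, Csf1 by 0.77, the oncostatin M receptor Osmr by 0.69 and Csf3r, also in the neutrophil list, by 0.51 (10.4% of all features rose). Of these, Crlf2 and Osmr also rose in normal colon after DSS (0.75 and 0.47) and had negative interactions (-0.77 and -0.73). Among 6 TNF family genes under other symbols, Ltb (lymphotoxin beta, 1.13) and Ngfr (0.54) rose in tumours of untreated rats.

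Of the 68 genes, 39 passed in no comparison of the main fit, which had no block. They were 9 of 16 interleukins, 18 of 23 interleukin receptors, 7 of 16 TNF receptors, 2 of 7 TNF ligands, Ifnar1, Cxcr1 and Psmg2. In tumours against normal colon of untreated rats their differences ran from -0.29 (Il17re, a receptor chain for IL-17C) to 0.67 (Tnfrsf17). Tnfrsf17, the plasma cell receptor BCMA, varied by lot: it had 0.46, 0.35, 0.13, 2.16 and 1.14 in tumours of DSS rats, 0.04, 0.05, 0.17, 1.54 and 1.58 in those of untreated rats, and at most 1.76 in normal colon. In both treatments the tumours of lot 2 were the highest. The T helper cytokines Il4, Il5 and Il13, the IL-17 receptor chains Il17ra, Il17rb, Il17rc and Il17re, the IL-2 receptor chains Il2ra, Il2rb and Il2rg, and Il7 with its receptor Il7r were among these genes. Of the 39, Il17rc, Il18r1, Il2rg, Tnfrsf1a, Tnfrsf18, Tnfrsf19 and Psmg2 each passed in some comparison with lot as a fixed block. Il2rg, the common gamma chain, had no value in the tumours of rats 2 and 4, and its fit used the remaining 18 samples. For Ifnar1 the 2 probes differed in sign in tumour against normal colon of untreated rats (-0.17 and 0.13), and neither passed. Probes named Il10rb, Il22ra1 and Tnfsf13b only through provisional identifiers lay outside the rule and passed in no comparison of the main fit.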

How the data were processed

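Colon and tumour RNA (Cy3) was hybridised with pooled wild-type colon RNA (Cy5) on 24 2-colour Agilent arrays without dye swap, per the labels. Intensity values and log10 ratios were deposited by the authors as scanner output, which the file headers credit to Feature Extraction 9.1.3.1; Partek is named without a role in the submitters' processing notes. Of these, the mean and background intensities of both channels were used. The deposited log10 ratio was not tested, and Agilent's processed signals were an alternative.

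Local backgrounds over 2 times their array's median were replaced by that median (0 to 128 spots per channel of an array), a choice made after seeing the data: without it a few spots at extreme negative net signal reduced the interquartile range of an array's log2 ratios to as little as 0.03. Background was corrected by normexp (offset 50), and log2(Cy3/Cy5) was normalized by loess within arrays. Control and non-uniform spots had weight 0. Probes well above background in Cy3 on at least 5 of 24 arrays were kept, 1 per gene (the brightest), giving 26528 features. Second arrays of a sample were averaged, leaving 20 samples, 5 rats per group.

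All 4 groups were fitted together in limma 3.58.1 (R 4.3.3), with two-sided p-values adjusted across the whole table by Benjamini-Hochberg and called below 0.05. This fit had no term for the rat, so the p-values are unpaired unless a rat block is named. A rat's tumour and normal colon come from 1 animal (correlations of deviations 0.277 to 0.593), and the rat entered as a block in alternatives. The fit was tested on simulated data. Genes named were the 8 largest increases and decreases past the test per comparison, plus a list of genes of interest. Where fewer than 6 passed, the 4 smallest p-values each way were named. The members and gene lists were chosen with earlier results of these data known. Promoters came from the RefSeq table on GRCr8. Alternatives covered lot, scan day, slide and rat blocks, scaling, background, filters, array weights and single rats left out.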

Additional observations from a re-analysis of the deposited data

Results flagged for a closer look

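Among 116 groups of 5 rats examined, 6 had a sample whose gap to its nearest neighbour was large for the range of its group; chance gives about 1 in 20. In tumours of DSS rats, rat 9, measured on a raised array, had -0.91 for Il36rn (nearest -0.21) and 0.02 for Il3ra (nearest -0.80). In tumours of untreated rats, rat 3 had 2.81 for Tnfrsf11b (nearest 2.13). In normal colon of DSS rats, rat 6 had -0.02 for Tnfsf13 (nearest 0.22). In normal colon of untreated rats, rat 4, on a raised array, had -0.37 for Il36b (nearest -0.15) and rat 10 had -0.98 for Tnfrsf14 (nearest -0.09).

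The effect of DSS differed between tumours and normal colon, by the interaction in limma, for 5 genes: Tnfrsf12a (-2.22), Tnfrsf1b (-2.11), Il6r (-1.15), Tnfrsf21 (-1.0) and Il12a (0.70). That of Il12a carries the limit of the signal filter named above.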

How the results depend on the processing

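The counts are of the 68 genes past the test. For tumour against normal colon in untreated rats (23), lot 2 alone gave 13 and median centring 12. In DSS rats (11), 18 passed with lot as a block, 19 with scan day, 22 with slide, 22 with the rat as a random replicate block, 21 with it as a fixed replicate block, 24 with array weights, 6 with median centring and 1 in lot 2 alone. For DSS in normal colon (16), 25 passed with slide as a block, 27 with array weights, 10 with the local background as given (8 higher and 2 lower), 7 with median centring and 0 in lot 2 alone, where 2 rats stood on each side. For the interaction (5), the counts were 10 with lot, 11 with scan day, 14 with slide and 15 with the rat as a random replicate block. With the rat as a fixed replicate block the count was 10, Ifnar1 at the threshold included. It was 11 with Agilent's processed signals, 9 with array weights, 2 with median centring and 0 in lot 2 alone. DSS in tumours gave 0 under all settings run. Leaving out single rats gave 16 to 22, 7 to 12, 11 to 17, 0 to 0 and 4 to 9 calls in these comparisons, with DSS in tumours before the interaction. A fixed rat block could not be fitted for DSS against untreated, since each rat had 1 treatment. No called gene changed sign under any alternative: 1231 gene values kept their side of the threshold and 230 lost it. The cause of these shifts was not tested. Median centring moved the median of all features to 0.14 in DSS rats, -0.11 for DSS in normal colon and 0.14 for the interaction. Agilent's processed signals moved it to -0.11 in untreated rats, -0.15 for DSS in normal colon and 0.16 for the interaction. Dim probes limit Il10, Il12a, Il24, Tnf, Tnfsf11, Tnfsf15 and the IL-36 genes, whose sizes were larger with Agilent's processed signals where given above.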
